A study of Mus musculus with 2 samples.

Results

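Natural killer (NK) cells were taken from single-cell RNA profiles of whole mouse uterus by a marker rule. A cell qualified with a transcript of at least 3 of 8 NK genes (Klra7, Klra8, Klra4, Eomes, Klre1, Ncr1, Prf1, Gzma), no Cd3e, Cd3g or Epcam transcript, and fewer than 3 Trdc transcripts. The rule found 750 of 8603 cells, 90 of 3653 in the control library and 660 of 4950 in the conditional knockout (cKO) library. Both groups were female mice 6 months old with floxed alleles of Prickle1, a planar cell polarity gene. The cKO mice also carried a Cre recombinase driven from Ltf, the lactoferrin gene, which is active in uterine epithelium. Each group was 1 library from the pooled uteri of 3 mice, so no difference below has a replicate check and no test is given. Intervals cover counting error only, and genotype, animals, digestion and library cannot be told apart. The group names follow the sample titles, although the genotype field of each sample reads C57BL/6J wild-type.

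NK cells are innate lymphocytes that kill through granules of perforin and granzymes and release cytokines. Their activity is set by the balance of activating and inhibitory receptors, many of which, such as the Ly49 family (Klra genes), read MHC class I. In the uterus some NK cells are tissue residents that carry the integrin CD49a (Itga1), and others resemble circulating NK cells. Uterine NK cells are known for their expansion in the decidua and for their part in remodelling maternal arteries.

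The 2 libraries held 45035801 (control) and 57145553 (cKO) unique molecular identifiers (UMIs, single captured transcripts), and 5 cell barcodes occurred in both. NK cells had a median of 5916.5 UMIs in control and 5605 in cKO, so their depth was similar, and their summed counts were 643115 and 4835877 UMIs. Levels are given as CPM, the UMIs of a gene per 1000000 UMIs of these sums. Prickle1 had 1 UMI in the control NK cells and 2 in the cKO NK cells. These 3′ tags do not check the deletion, because the floxed exon is not given and the Cre is not aimed at NK cells. Ltf had 2 UMIs in control and none in cKO NK cells.

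NK cells made up 2.46% of control cells (exact 95% binomial interval 1.99 to 3.02) and 13.3% of cKO cells (12.4 to 14.3), a 5.41-fold difference (4.36 to 6.72). Epcam, an epithelial gene, was at 0 in 2605 of the control and 4767 of the cKO cells, and over these the shares were 3.45% and 13.8%. Over cells with a transcript of Ptprc, the pan-leukocyte gene CD45, they were 11.5% and 36.9%. The cKO share was above the control share over each of these denominators. Among the cells that could be called NK, γδ T or αβ T, NK cells were 37.0% in control (90 of 243) and 56.1% in cKO (660 of 1176). In the same sum γδ T cells were 29.2% (71) and 33.2% (391), and αβ T cells 33.7% (82) and 10.6% (125). A share depends on every other cell type in the library, and fewer cells of other types cannot be told apart from more NK cells.

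**Figure D1:**
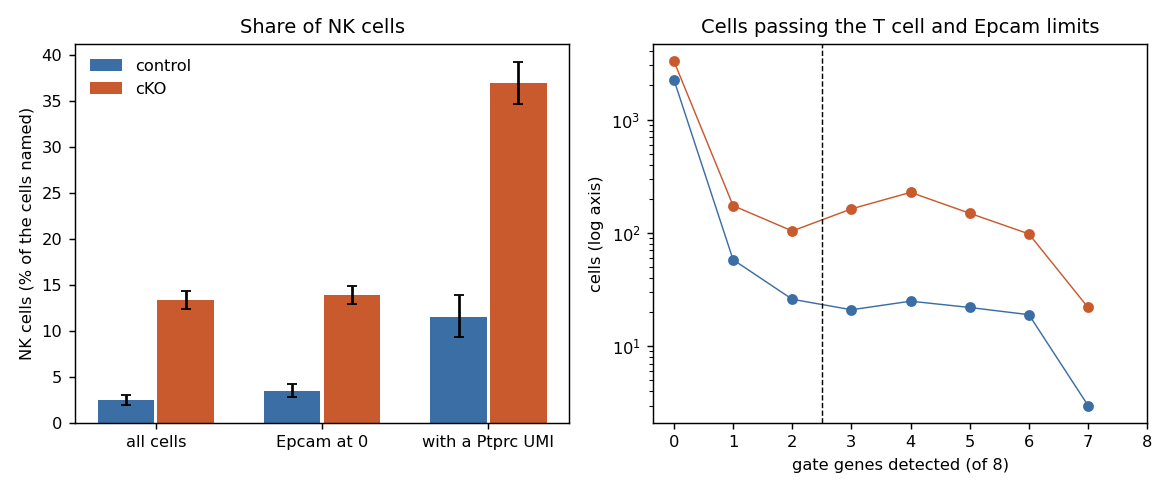
Left, NK cells as a percentage of all cells, of cells with Epcam at 0 and of cells with a Ptprc UMI, in the control (blue) and cKO (orange) libraries, with exact 95% binomial intervals of counting error. The cKO bars (13.3%, 13.8% and 36.9%) stand above the control bars (2.46%, 3.45% and 11.5%). Right, cells that pass the T cell and Epcam limits by the number of the 8 gate genes detected, on a log axis, with members to the right of the dashed line.

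The edge of the rule was not sharp. Cells with 2 gate genes, just outside, numbered 26 in control and 104 in cKO, and 88.5% and 97.1% of them had a transcript of Il2rb, the β chain of the interleukin 2 and 15 receptors. Cells with 3, just inside, numbered 21 and 163, and all of them had Il2rb. Cells with only 1 gate gene numbered 58 and 174, with Il2rb in 22.4% and 34.5%. The Trdc limit alone removed 4 control and 22 cKO cells. Cells just outside it, with 3 Trdc UMIs, numbered 1 and 13, and 5 and 47 members held 2.

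The 8 gate genes were used by the rule, so their values are a description only. Eomes, the T-box factor that marks the NK lineage, was at 344 CPM in control and 363 in cKO, and Klre1, a lectin receptor, at 543 and 539. The Ly49 receptors Klra7 (327 and 303), Klra4 (411 and 337) and Klra8 (219 and 174) were closer to each other than 2-fold, as was perforin, Prf1 (235 and 167). Ncr1, the activating receptor NKp46, was at 35.8 and 9.31, and Gzma, granzyme A, at 1625 and 334.

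Markers that the rule did not use were present, but not all were level between the libraries. Il2rb was at 2367 CPM in control and 3225 in cKO, Klrk1, the activating receptor NKG2D, at 633 and 540, and Fcer1g, a signalling adaptor, at 765 and 811. Tbx21, the T-bet factor, was at 57.5 and 51.5 CPM, and Nkg7 at 244 and 177. Klrd1, Tyrobp and Klrb1c, described below, were more than 2-fold lower in cKO. Klrb1c was at 80.9 and 8.48 CPM and was detected in 25.6% of control and 4.09% of cKO members. The defining γδ T genes Tcrg-C1, Il17a, Cd163l1 and Il23r had no UMI in NK cells of either library, and the γδ T list summed to 99.5 and 89.7 CPM against 3741 and 2571 in the γδ T cells. Il22 and Ccr6, which with Il23r are genes of group 3 innate lymphoid cells, were also at 0 in both. The whole group 3 list of 9 genes summed to 24.9 and 73.0 CPM (3 and 5 genes detected), with Nrp1 at 12.4 and 42.4 and Il1r1 at 0 and 14.1, and to 5.04 and 7.14 in the cells left after those with genes of another cell type and cycling cells were set aside. Trbc1, the T cell receptor β constant gene that NK cells can transcribe from the unrearranged locus, was detected in 73 of 90 and 555 of 660 members (448 and 420 CPM). Cd3d was at 4 and 8 UMIs. The αβ T list of 14 genes summed to 773 and 679 CPM, against 2477 and 2787 in the αβ T cells. A list of 10 genes of group 2 innate lymphoid cells summed to 275 and 273 CPM (4 and 9 genes detected), against 289 and 292 in the γδ T cells.

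Some members carried transcripts of another cell type. At least 2 genes of one foreign set were found in 11 of 90 control cells (12.2%) and 105 of 660 cKO cells (15.9%), mainly dendritic (6 and 37 cells), fibroblast (2 and 32) and smooth muscle (2 and 47) genes. These cells were deeper than the others, with median UMIs of 10653 against 5752 in control and 11047 against 5392 in cKO. The dendritic list summed to 732 CPM in control and 2192 in cKO over all members, and to 124 and 61.0 after these cells and the cycling cells (below) were set aside. The macrophage list summed to 737 and 156, and to 90.7 and 14.0 without them. Values from the 70 control and 554 cKO cells that remain are called trimmed values. The share of NK UMIs that was cell-free RNA, estimated from epithelial genes, was 0.863% and 1.49%. The rule excludes cells with an Epcam transcript, which can lower this estimate.

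Over all 10283 genes with at least 20 UMIs, 1344 were more than 2-fold higher in cKO NK cells (13.1%) and 586 more than 2-fold lower (5.7%), and the median log2 ratio was 0.18. Requiring the whole counting interval beyond 2-fold left 184 (1.79%) and 247 (2.4%). The gene lists below were read at a limit of 10 UMIs, where 14.5% of genes were more than 2-fold higher and 7.31% more than 2-fold lower. The matching shares among trimmed cells were 12.2% and 4.99%. Gate genes are left out of every list count and median below. A gene at 0 in control reaches 10 UMIs only through the larger cKO sum, so such genes are named where a count of higher genes holds them.

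**Figure D2:**
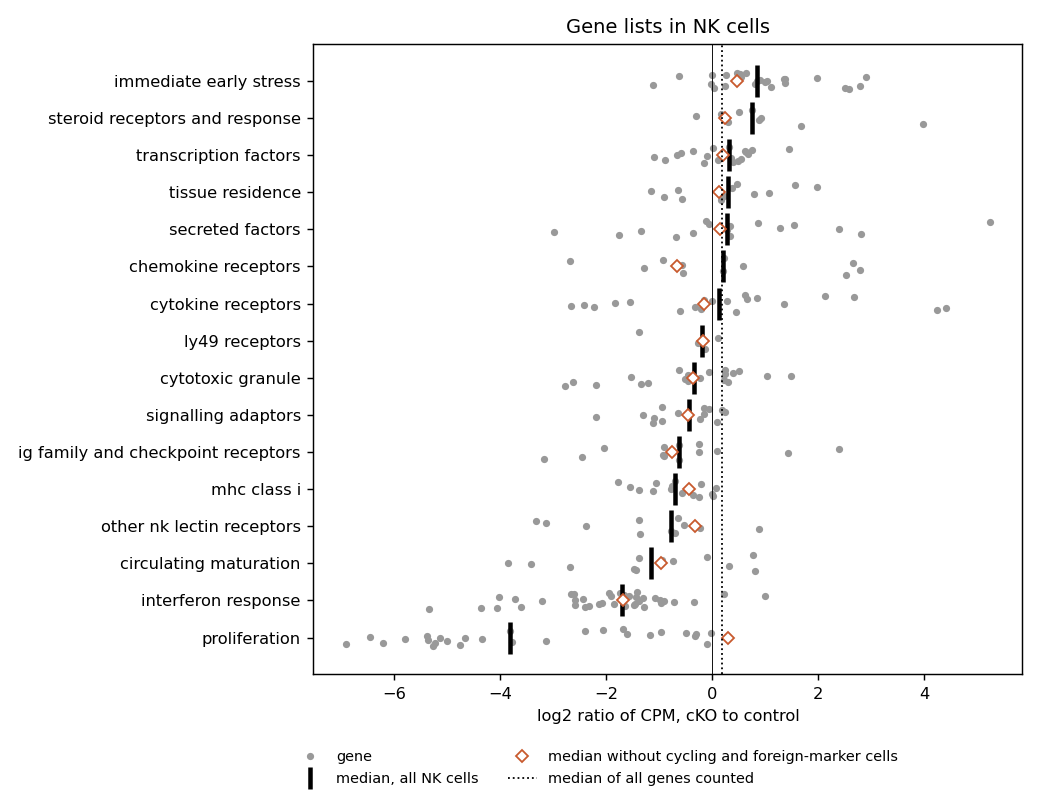
Log2 ratio of CPM, cKO to control, for the members of 16 gene lists in NK cells, without gate genes. Each grey point is a gene with at least 10 UMIs, the black bar is the list median over all NK cells, the open diamond the median among trimmed cells, and the dotted line the median over all genes counted (0.18). The interferon-response median sits at -1.71 and barely moves when cells are trimmed (-1.68), whereas the proliferation median moves from -3.81 to 0.29.

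Beside the 3 in the gate, 4 Klra genes were counted, with a median log2 ratio of -0.20. None was more than 2-fold higher and 1 was more than 2-fold lower. Klra1 was at 76.2 CPM in control and 69.7 in cKO, Klra3 at 28.0 and 23.2, and Klra5 at 31.1 and 33.5, with overlapping intervals. Klra9 was the exception, at 94.9 CPM (72.6 to 122) and 36.2 (31.0 to 42.0), which is 2.62-fold lower (1.93 to 3.53). These genes are near-identical copies, so short reads may be assigned to the wrong one and single-gene values are uncertain. Counted in cells chosen without Ly49 genes (64 control and 284 cKO), Klra4 occurred in 54.7% and 70.8%, Klra7 in 53.1% and 69.0%, Klra8 in 39.1% and 41.5% and Klra9 in 29.7% and 18.3%. Such cells held a median of 2.5 and 3 Ly49 genes each, and 6 of 64 and 12 of 284 held none. All 22 detected genes of the Klr lists lie on chromosome 6 (GRCm38), with Klrg1 at chr6:122270596-122282882 and the others from Klrb1a to Klra1 at chr6:128609227-130386874.

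Other lectin receptors were more often lower. Of 11 counted, 5 were more than 2-fold lower in cKO, none more than 2-fold higher, and the median was -0.77, or -0.32 in trimmed cells with the same counts. Klrd1 encodes CD94, which pairs with the NKG2 proteins, and was at 513 CPM (459 to 572) in control and 199 (187 to 212) in cKO. It was 2.58-fold lower (2.27 to 2.93), with detection at an even depth of 1000 UMIs per cell of 32.2% and 18.1% and 0% and 0.147% in mesenchymal cells. Its partners Klrc1 (63.8 and 38.7) and Klrc2 (99.5 and 58.1) stayed within 2-fold, and in trimmed cells the log2 ratio of Klrc1 was 0.50. Klrb1c, the NK1.1 antigen, was at 80.9 CPM in 23 control cells and 8.48 in 27 cKO cells, 9.54-fold lower (6.21 to 14.7), and 70.6 and 8.03 in trimmed cells. At even depth Klrb1c was found in only 3 control and 5 cKO cells (3.33% and 0.759%). That difference of -2.57 percentage points had an interval of -8.70 to 0.25, which includes 0, and the log2 ratio was -1.41 on thinned cells against -3.14. Klrb1f was at 42.0 and 3.52, and Klrg1, an inhibitory receptor of mature NK cells, at 101 and 38.3. Klrb1b, the inhibitory partner gene in the same family, was at 129 and 89.1. The Klrb1 genes are close relatives, with the same caution on shared reads.

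Among immunoglobulin-family and checkpoint receptors (13 counted, median -0.63), 2 were more than 2-fold higher and 3 more than 2-fold lower. In trimmed cells these were 1 and 5 of 12. Cd226, the activating receptor DNAM-1, was at 60.6 CPM (43.1 to 82.9) in control and 6.00 (4.02 to 8.61) in cKO, 10.1-fold lower (6.09 to 17.0), with 65.5 and 6.25 in trimmed cells. Slamf6, an adhesion receptor, was at 17.1 and 2.48. Pdcd1 was at 20.2 and 4.34, and 69.2% of its control UMIs came from 1 cell. Fcgr3, the CD16 receptor for antibody, was at 110 and 58.7. Cd160, an MHC class I receptor, went the other way, at 17.1 (8.54 to 30.6) and 47.1 (41.2 to 53.7), and was 2.76-fold higher (1.51 to 5.60). The other higher gene, Havcr2, had 0 and 16 UMIs, and its 3.31 CPM in cKO is under the level that a count of 0 allows in control, so it is not resolved.

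Signalling adaptors were lower in part (14 counted, median -0.44, 4 more than 2-fold lower and none higher). Tyrobp (DAP12), which carries signals from activating lectin receptors, was at 538 CPM in control and 248 in cKO, 2.17-fold lower (1.92 to 2.44). Hcst (DAP10), the partner of NKG2D, was at 205 and 106. Sh2d1a (SAP), the adaptor of SLAM receptors, was at 145 and 58.1. The immunoreceptor adaptor Fcer1g and the inhibitory phosphatase Inpp5d (219 and 250) did not follow them.

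Granule genes were lower in part (20 counted, median -0.34, 2 more than 2-fold higher and 6 lower, against 0 and 4 of 19 in trimmed cells). Gzmb was at 805 CPM (738 to 878) in control and 116 (107 to 126) in cKO, 6.92-fold lower (6.13 to 7.81), and 1001 and 135 in trimmed cells. At 1000 UMIs per cell Gzmb was detected in 27.8% and 6.07% of cells, against 0.102% and 0.0489% of mesenchymal cells. Gzmc, a granzyme found in activated and tissue-resident lymphocytes, was at 491 and 107, 4.59-fold lower (3.98 to 5.29). Gzmk was at 29.5 and 4.14, and Cst7, the cystatin F that holds back granzyme processing, at 54.4 and 18.2.

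Other granule genes did not follow Gzmb. Gzmd was at 135 and 52.5 CPM in all cells but at 52.9 and 67.8 in trimmed cells, and 57.5% of its control UMIs were in 1 cell. Gzmf, at 65.3 and 80.2, had 97.6% of its control UMIs in 1 cell. Gzmd to Gzmg are near-identical copies whose reads may be misassigned. Nkg7, a granule membrane protein, was at 244 and 177, Srgn, the serglycin core that packs granules, at 776 and 906, and Fasl, the death ligand, at 196 and 233. Serpinb9, which protects the killer cell from its own granzyme B, was at 351 (307 to 400) and 724 (700 to 748), and was 2.06-fold higher (1.80 to 2.37). In trimmed cells it was at 454 and 726.

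**Figure D3:**
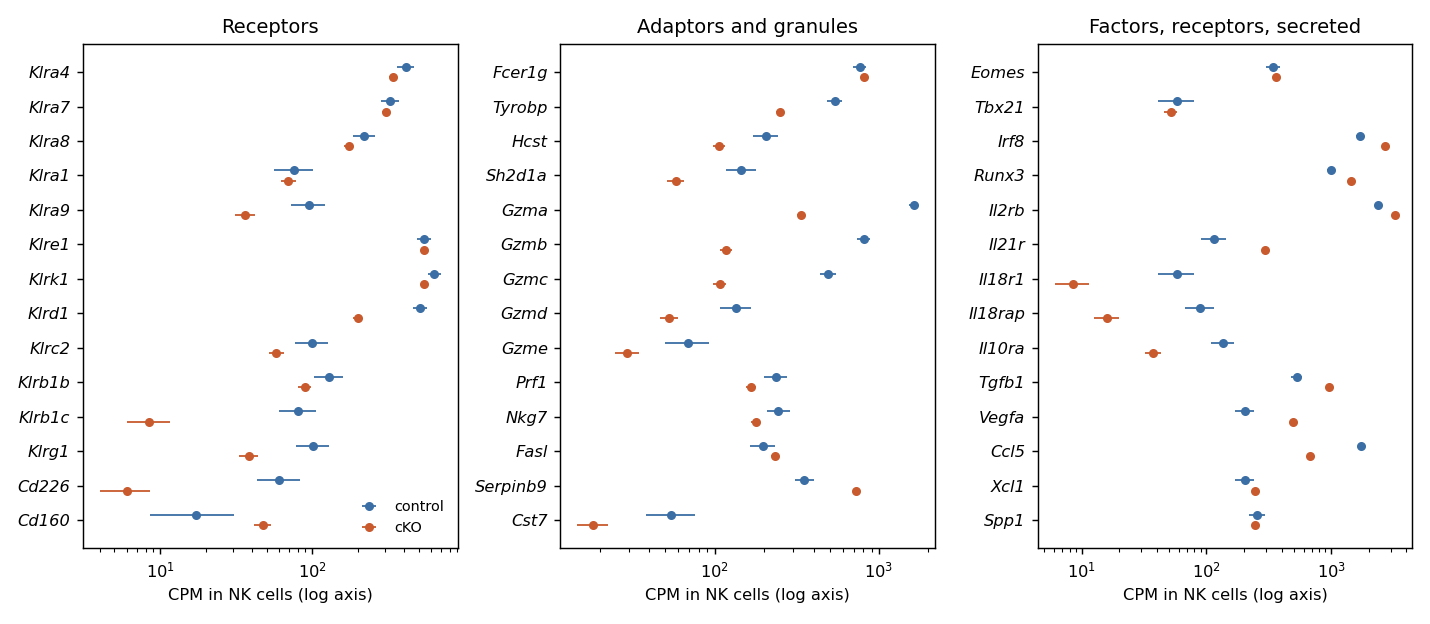
CPM of 42 genes in the NK cells of the control (blue) and cKO (orange) libraries, on log axes, with exact 95% Poisson intervals of counting error, 1 library per group. The gate genes, among them Gzma, Klra4 and Eomes, are shown as a description. Gzmb (805 and 116), Klrb1c (80.9 and 8.48) and Cd226 (60.6 and 6.00), which the rule did not use, are lower in cKO.

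Lineage transcription factors mostly stayed within 2-fold (19 counted, median 0.32, 1 more than 2-fold higher and 1 lower). Irf8, a factor needed for NK maturation, was at 1693 CPM (1594 to 1797) in control and 2720 (2674 to 2767) in cKO, a 1.61-fold difference. At even depth it was detected in 72.2% and 87.7% of NK cells, against 0.615% and 1.37% of mesenchymal cells. Runx3 (997 and 1447), Id2 (938 and 1230), Nfil3 (123 and 173) and Bach2 (269 and 416) were also higher in cKO, within 2-fold. Ikzf2 was at 369 and 232, and Tcf7, which marks less mature cells, at 222 and 173, and in trimmed cells their log2 ratios were 0.10 and 0.09. Ahr was higher (5 and 109 UMIs, 7.77 and 22.5 CPM, and 7.56 and 12.2 in trimmed cells) and Tox lower (32.7 and 14.9).

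Residence genes did not differ in one direction (12 counted, median 0.30, 3 higher and 1 lower past 2-fold), and 1 of the 3, P2rx7, was at 0 in control. In trimmed cells 0 of 9 were higher and 2 lower, with a median of 0.12. Itga1 was at 210 CPM (176 to 248) in control and 236 (222 to 250) in cKO, with detection at even depth of 11.1% and 16.1% (difference 4.97 percentage points, -3.83 to 11.4), against 1.64% and 1.56% in mesenchymal cells. Cxcr6, a receptor of resident lymphocytes, was at 9.33 and 6.00, against 1085 and 1042 in γδ T cells, and 83.3% of its control UMIs came from 1 cell. Cd69 was at 93.3 and 49.0. Rgs1 was at 1244 and 2155, and Rgs2, another regulator of G protein signalling, at 454 and 957.

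Genes of circulating and mature NK cells were lower in part. Of 12 counted, 6 were more than 2-fold lower and none higher, and the median was -1.16. Itgam, the CD11b integrin of mature NK cells, was at 74.6 CPM in control and 27.1 in cKO. S1pr1, the receptor that lets lymphocytes leave tissue, was at 37.3 and 5.17. Ly6c2 was at 70.0 and 4.14, but its control UMIs came from 6 cells. Ly6c2 is also in the macrophage list, which summed to 737 and 156 CPM, and to 90.7 and 14.0 in trimmed cells. Cma1, another of the 6 lower genes, is also a mast cell gene. Cd27, a receptor of less mature NK cells, went the other way, at 99.5 (64 UMIs) and 171. At even depth Cd27 was detected in 5.56% and 17.3% of NK cells, a difference of 11.7 percentage points (4.26 to 16.6), and in 0.410% and 0.147% of mesenchymal cells. In trimmed cells the list median was -0.97, with 6 of 12 more than 2-fold lower.

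Secreted factors were mixed (17 counted, median 0.28, 5 higher and 3 lower). Of the 5, Areg (16 cKO UMIs) and Penk were at 0 in control. In trimmed cells 1 of 13, Ccl3 with control at 0, was higher and 3 were lower. Ccl5, a chemokine for T cells and monocytes, was at 1734 CPM in control and 681 in cKO, 2.54-fold lower (2.38 to 2.72). Ltb was at 174 and 50.7. Ccl4 was at 302 and 37.2, but 1 control cell held 95.9% of its UMIs, and in trimmed cells it was at 20.2 and 35.1. Ifng was at 18.7 and 11.4 with overlapping intervals. Spp1, osteopontin, was at 255 and 244.

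The summed levels of Vegfa and Tgfb1 were higher in cKO. Vegfa, the angiogenic factor, was at 202 CPM (169 to 240) in control and 490 (470 to 510) in cKO, 2.42-fold higher (2.03 to 2.91), and at 234 and 445 in trimmed cells. Its detection at even depth was 13.3% and 32.5% in NK cells and 26.1% and 31.6% in mesenchymal cells, which themselves hold Vegfa transcripts. In γδ T cells Vegfa was detected in 4.23% and 5.88%. Tgfb1 was at 529 and 959, 1.81-fold higher (1.63 to 2.03), with detection at even depth of 46.7% and 57.8%. That difference of 11.1 percentage points had an interval of -0.35 to 22.4, which includes 0. Xcl1, which recruits cross-presenting dendritic cells, was at 202 and 245, but without cycling cells its log2 ratio was -0.012. Its detection at even depth was 11.1% and 22.6% in NK cells and 0% and 0.0489% in mesenchymal cells. Csf1 was at 17.1 and 125 in all cells but at 10.1 and 8.93 in trimmed cells.

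**Figure D4:**
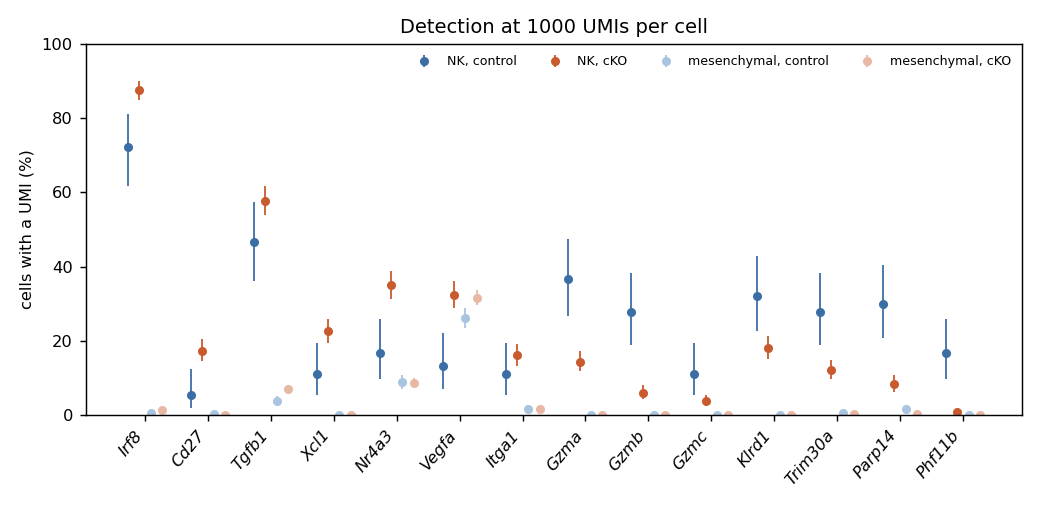
Percentage of cells with a UMI of 14 genes after each cell was thinned to 1000 UMIs, in NK cells and in mesenchymal cells of each library, with exact 95% binomial intervals. Gzmb, Klrd1 and Parp14 are lower in cKO NK cells, and Irf8 and Cd27 higher. Gzma was used by the rule and is shown as a description. In mesenchymal cells Vegfa (26.1% and 31.6%), Nr4a3 (8.81% and 8.75%) and Tgfb1 (3.79% and 7.04%) have the highest shares of these genes.

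Cytokine receptors were mixed (20 counted, median 0.13, 5 higher and 5 lower), and in trimmed cells the median was -0.15 with 4 of 19 higher (Il7r and Tgfbr3 with control at 0) and 5 lower. Il18rap and Il18r1, the 2 chains of the interleukin 18 receptor, were at 88.6 and 15.9 CPM and at 57.5 and 8.48, respectively, from control to cKO, with Il18r1 at 27.7 and 10.4 in trimmed cells. Il12rb1 was at 15.5 and 2.69, and Il10ra at 135 and 37.2, 3.63-fold lower (2.78 to 4.72). Il21r was at 115 and 295, 2.56-fold higher (2.03 to 3.28), and 156 and 337 in trimmed cells. Ifngr1 (1639 and 1981), Ifnar1 (193 and 192) and Ifnar2 (73.1 and 66.0) stayed within 2-fold. Il7r and Il2ra, at 2 UMIs each in control and 395 and 353 in cKO, were at 5.36 and 11.3 CPM in trimmed cKO cells. Chemokine receptors had a median of 0.20 over all cells (11 counted, 3 higher and 2 lower) and of -0.66 in trimmed cells (9 counted, 0 higher and 3 lower). Of the 3 higher, Ccr1 and Xcr1 were at 0 in control, and with these at the bound that 3 UMIs allow the median was 0. The list held Ccr2 at 966 and 656, Cxcr4 at 535 and 804, and Cxcr3 at 24.9 and 9.72. Ccr7 was at 46.6 and 327 in all cells and 40.3 and 13.7 in trimmed cells.

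Interferon-response genes had the second most negative median of the 16 lists, after proliferation. Of 40 counted, 33 were more than 2-fold lower in cKO and 1 was higher, and the median log2 ratio was -1.71. The list summed to 4421 CPM in control and 1301 in cKO. In trimmed cells 34 of 38 were more than 2-fold lower and none higher. Parp14 was at 295 CPM in control and 92.4 in cKO, and Trim30a, which restrains inflammatory signalling, at 418 and 129. Ifi44 was at 124 and 12.8 and Irf7 at 54.4 and 14.5. The exception in the list, Ifitm3, was at 37.3 and 75.7, and at 5.04 and 4.17 in trimmed cells. Cxcl10, a chemokine gene outside the list, was at 235 and 6.2, from only 10 control cells.

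The list was also lower in T cells and in cell-free RNA of the cKO library. In γδ T cells 32 of 40 were more than 2-fold lower (background 4.15%) and 2 higher (17.5%), with a median of -1.60. In αβ T cells 25 of 42 were lower (6.4%) and none higher (7.68%), with a median of -1.29. The T cell groups were not trimmed. In barcodes with at most 100 UMIs the list summed to 4148 CPM in control and 1183 in cKO. With the estimated cell-free part subtracted from the NK counts the list median was -1.71, as without. That part was only 0.863% of NK UMIs in control and 1.49% in cKO. So small a subtraction can move the median little, and the part of cell-free RNA was not tested. Members of the Ifi200, Gbp and Ifit families resemble each other, so their single-gene counts are uncertain.

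Promoters of these genes often hold the interferon-stimulated response element, searched here as GAAA, any 2 bases, GAAA, the site family bound by interferon-regulatory complexes. Within 250 bases upstream of the start on either strand it occurred in 17 of the 32 counted list genes with a promoter in the table (53.1%), and in 15 of the 27 that were more than 2-fold lower (55.6%). It occurred in 3.46% of all 27025 genes and in 3.32% of the 8106 genes with at least 20 NK UMIs. A second motif, TTCNNNGAA, read by STAT dimers, occurred in 18.8% of list genes and 8.13% of all genes. The 8 list genes with the most negative ratio that hold the first motif follow, with 60 bases (49 for Irgm1, which ends at the start) around it, 5′ to 3′ on the gene's strand. Capitals mark each match on either strand (TTTC, any 2 bases, TTTC on the other). A match describes these letters and is not evidence of binding.
Ifit1: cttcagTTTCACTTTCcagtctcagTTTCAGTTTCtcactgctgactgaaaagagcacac
Ifit3: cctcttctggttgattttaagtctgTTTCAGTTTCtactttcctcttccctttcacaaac
Rsad2: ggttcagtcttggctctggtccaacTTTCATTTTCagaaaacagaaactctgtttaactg
Slfn5: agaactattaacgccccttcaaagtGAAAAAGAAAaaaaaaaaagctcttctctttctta
Phf11b: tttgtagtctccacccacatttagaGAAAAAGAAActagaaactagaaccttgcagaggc
Oas3: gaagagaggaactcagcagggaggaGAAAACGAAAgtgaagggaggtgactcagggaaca
Isg15: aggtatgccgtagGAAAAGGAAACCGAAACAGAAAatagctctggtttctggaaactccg
Irgm1: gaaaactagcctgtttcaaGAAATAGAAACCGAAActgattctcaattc
The windows, from RefSeq on GRCm38.p6, are Ifit1 chr19:34640779-34640838 (+), Ifit3 chr19:34583382-34583441 (+), Rsad2 chr12:26456538-26456597 (-), Slfn5 chr11:82951922-82951981 (+), Phf11b chr14:59341346-59341405 (-), Oas3 chr5:120777700-120777759 (-), Isg15 chr4:156200850-156200909 (-) and Irgm1 chr11:48871421-48871469 (-). Among these 8 genes the NK levels in control and cKO were 132 and 2.48 CPM for Ifit1, whose control UMIs were 50.6% in 1 cell, 28.0 and 0.620 for Ifit3 (3 cKO UMIs, 50% of the control UMIs in 1 cell), 204 and 15.9 for Rsad2 (68.7% in 1 control cell), 85.5 and 12.8 for Slfn5 (52.7% in 1 control cell), 91.7 and 14.5 for Phf11b, 24.9 and 3.52 for Oas3, 110 and 20.3 for Isg15 and 145 and 37.8 for Irgm1. In trimmed cells Slfn5 was at 65.5 and 3.27, Rsad2 at 80.7 and 9.52 and Isg15 at 98.3 and 4.76. Phf11b was found in 25 control and 50 cKO cells and was detected at even depth in 16.7% and 0.910% of cells.

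Cycling NK cells were found in the control library. At least 3 of 12 cell-cycle genes were detected in 12 of 90 control cells (13.3%, 7.08 to 22.1) and in 1 of 660 cKO cells (0.152%, 0.00384 to 0.841). After thinning to 1000 UMIs the counts were 8 of 90 and 0 of 659, and a count of 0 there allows up to 0.455%. In control, 10 cells had at least 7 of the 12 genes, and 6 had all 12. The proliferation list of 27 genes had a median log2 ratio of -3.81, with 21 more than 2-fold lower. Mki67, the Ki-67 antigen, was at 331 and 7.86 CPM, and Top2a, a mitotic topoisomerase, at 351 and 12.2. Ccna2, cyclin A2, had 49 UMIs in control and 0 in cKO, at least 96.2-fold lower by the limit of the counting interval. In trimmed cells, from which these control cells are removed, Hmgb2 was at 489 and 476 and the list median was 0.29 over 15 genes. The 12 largest differences lower in cKO over all NK cells were cell-cycle genes, among them Nusap1, Tpx2, Aspm, Hmmr and Ube2c.

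**Figure D5:**
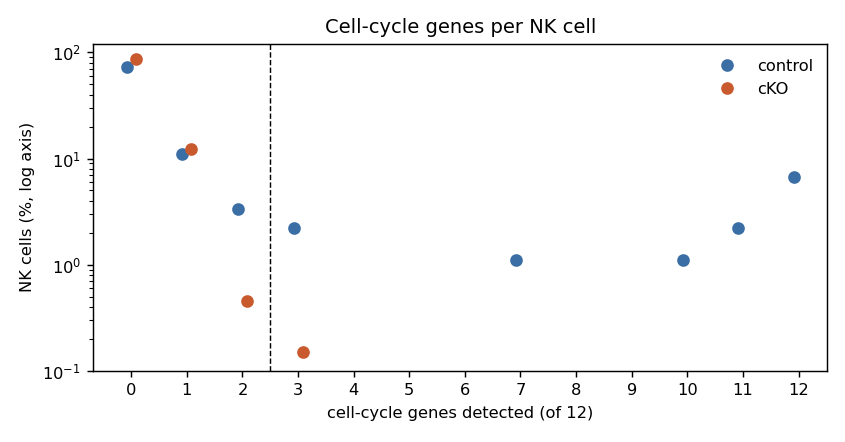
Percentage of NK cells, on a log axis, by how many of 12 cell-cycle genes were detected, in control (blue) and cKO (orange). In control 10 of 90 cells hold at least 7 of the 12 genes, while no cKO cell of 660 holds more than 3.

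Within the control library the 12 cycling cells, with a median of 12537 UMIs, differed from the 78 others, with 5327. Stmn1, a microtubule regulator, was at 982 CPM in cycling and 49.2 in other cells, and Hmgb2 at 5195 and 466. Gzmc was at 28.5 and 665, Irf8 at 719 and 2058 and Itga1 at 68.5 and 263.

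Immediate early genes, which respond within minutes to stimulation or tissue dissociation, were more often higher in cKO (25 counted, median 0.84, 11 more than 2-fold higher and 1 lower). In trimmed cells the median was 0.48 with 6 of 24 higher and 2 lower, and with 2 gate genes required in place of 3 it was 0.19 over all cells. Fos was at 20.2 and 126 CPM and Egr1 at 18.7 and 133, though 50% of the control Egr1 UMIs came from 1 cell. Nr4a3, an orphan nuclear receptor, was at 129 and 510 CPM, 3.95-fold higher (3.17 to 4.97), and was detected at even depth in 16.7% and 35.1% of NK cells, against 8.81% and 8.75% of mesenchymal cells. Junb was at 397 and 860, while Jun was at 88.6 and 90.4. In γδ T cells the list median was 1.11, with 13 of 25 genes more than 2-fold higher (17.5% of all genes there) and 0 lower. In αβ T cells it was 0.10, with 6 of 25 higher (7.68%) and 1 lower. The T cell groups were not trimmed. In γδ T cells the dendritic list summed to 24.0 CPM in control and 1377 in cKO, and the fibroblast list to 1555 and 5165. In αβ T cells the dendritic list summed to 1854 and 3568, and the fibroblast list to 4248 and 2643. The digestion ran for 5 hours in both groups, and its part was not tested.

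Of steroid receptor and response genes (9 counted, median 0.76, 2 higher and 0 lower, with a median of 0.24 and 1 higher in trimmed cells), Nr3c1, the glucocorticoid receptor, was at 247 and 304 CPM. Tsc22d3, a glucocorticoid-responsive gene, was at 107 and 203. Esr1 and Pgr had 2 UMIs each in control, and Pgr had 0 and 5 UMIs in trimmed cells, so their levels in NK cells are not resolved from other cells. Of MHC class I genes (15 counted, median -0.71) 5 were more than 2-fold lower and none higher, and in trimmed cells 4 were lower with a median of -0.44. Tap1, the peptide transporter, was at 218 and 73.4, Psmb9, an immunoproteasome subunit, at 143 and 40.9, and H2-T23 at 241 and 91.6. The heavy chain H2-K1 (3623 and 3681), H2-D1 (2096 and 1772) and B2m (4309 and 4532) were within 2-fold.

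Genes with the largest differences in trimmed cells, by the interval limit nearest to 1, were also listed. The levels printed beside them are over all NK cells. Those higher in cKO included Rsad1 (4.66 and 58.9 CPM over all NK cells, 3 and 285 UMIs), Lrrc8d, a volume-regulated anion channel subunit (54.4 and 186), Irs2, an insulin signalling adaptor (118 and 319), Perp (31.1 and 88.5) and Fth1, the ferritin heavy chain (5676 and 9327). Those lower included Gbp6 (54.4 and 2.69), Ifi208 (51.3 and 3.10), Ifi203 (246 and 36) and Gbp4 (131 and 18.2), all interferon-inducible genes, beside Gzmb, Klrb1c and Cd226 given above. Over all cells the list of higher genes was led by Ccl22 (0 and 1608 UMIs), Il7r, Il2ra, Mmp25 and Etv3, and also held Ccr7 and Cd40. Ccl22 and Ccr7 are genes of mature dendritic cells and belong to the foreign set that was trimmed. Ccl22 was at 3.27 CPM in trimmed cKO cells.

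NK cells were set against γδ T cells in each library, leaving out genes of the gates. Of 6622 genes with enough counts, 280 were more than 2-fold higher in NK cells in both libraries (4.23%) and 284 lower (4.29%). Cxcl3, a neutrophil chemokine, led those higher, at 280 CPM against 0 in control and 120 against 3.76 in cKO. The control difference was at least 28.1-fold by the limit of the counting interval. Its UMIs came from 3 and 14 cells, with 76.1% and 75.4% in 1 cell, and it was at 0 and 2.08 CPM in trimmed cells. Next were Spp1 (255 against 10.7 and 244 against 25.4), Myb (353 against 24.0 and 429 against 45.5), Cd7 (438 against 40.1 and 245 against 28.8) and Car2, a carbonic anhydrase (451 against 32.1 and 430 against 57.4). Those lower were led by Cd163l1, Tcrg-C1 and Cxcr6, and included Igf1r at 15.5 against 2327 and 64.3 against 1807 (0 and 78.3 in trimmed NK cells). Against αβ T cells 277 of 7167 were higher (3.86%) and 354 lower (4.94%). Gzmc led those higher, at 491 against 16.7 and 107 against 0. Irf8 was at 1693 against 155 and 2720 against 238, and Cdh1, E-cadherin, at 94.9 against 1.67 and 78.6 against 6.38. Cd6 and Cd5, T cell surface receptors, were lower, Cd5 at 1.55 against 112 and 0.414 against 128. All 3 cell types were chosen by marker genes, so these contrasts are a description.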

How the data were processed

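Whole uteri of 1 control pool and 1 cKO pool were profiled by droplet-based sequencing of transcript 3′ ends. The authors deposited raw UMI counts per gene and barcode, with no normalization. Per the submitters' processing notes the tools were Cell Ranger 6.1.1 and the mm10 build, while the deposited matrix header, per the file headers, names Cell Ranger 4. Other deposited files hold barcode and gene names only. Of 32285 gene identifiers, 32158 were found in GENCODE M21, used for positions.

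A barcode counted as a cell with 500 or more genes and a mitochondrial UMI share of 20% or less. NK cells, γδ T cells (at least 3 Trdc UMIs) and αβ T cells (at least 2 of 4 T cell genes, Trdc at 0) were gated on marker genes. The members and the gene lists were chosen with earlier results of these data known. Counts were summed per library and cell type and given as CPM. Log2 ratios carry a pseudocount of 0.5 UMI. CPM have exact Poisson intervals, ratios exact conditional binomial intervals and shares exact Clopper-Pearson intervals, all at 95% and covering counting error only, since replicates were 1 per group. On simulated counts for 10310 genes, 96.4% of the ratio intervals held the true ratio. Those counts were drawn independently, so this share does not cover genes whose UMIs are clumped in single cells. A count of 0 was treated as allowing 3. Doublets were scored in the manner of Scrublet and kept. A score over 0.25 marked 1 control and 20 cKO NK cells, of which 1 and 19 also carried a foreign set and are not among the trimmed cells. Trimmed cells exclude those with at least 3 of 12 cell-cycle genes or at least 2 genes of one of 10 foreign sets, chosen after the data were seen. Mesenchymal cells without Ptprc (1044 and 2130, median UMIs 5141 and 11617.5) gave the background of detection, with cells thinned to 1000 UMIs.

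Named genes were the 12 largest differences in each direction ranked by the counting interval's bound closest to 1. A gene needed 20 UMIs spread over 5 or more cells of the higher library, with no cell there holding over 50% of them. List members with at least 10 UMIs were also named where a paragraph turns on them. Some genes that these rules cover are not reported here. Alternatives covered the cell limits, the gate, doublets, thinning, cell-free RNA, edgeR 4.0.16 TMM scaling (R 4.3.3), minimum counts and the pseudocount. Python 3.11.15, numpy 2.4.6, scipy 1.17.1, pandas 2.3.3, scanpy 1.11.5 and matplotlib 3.10.9 were used.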

Additional observations from a re-analysis of the deposited data

How the results depend on the processing

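No paired analysis was possible because each group is 1 library. The log2 ratio of the NK share, 2.44, was 2.00 over cells with Epcam at 0, 1.68 over cells with a Ptprc UMI, 2.08 when the gate was applied to thinned cells, and 2.28 with every T cell receptor gene at 0. That last gate left 7 control and 46 cKO cells, under the 20 set as a minimum, so it gives no gene values. The 1344 genes more than 2-fold higher became 860 without foreign-marker cells, 2063 on thinned cells, 865 at 50 UMIs and 184 by the whole interval. The 586 lower became 344 at 50 UMIs and 247 by the whole interval. The proliferation median, -3.81, was 0.17 without cycling cells, which are the cells chosen by such genes, and -1.36 on thinned cells. The immediate early median, 0.84, was 0.19 with 2 gate genes and 0.43 as a mean of per-cell shares. Without foreign-marker cells Ccr7 was at -1.52, and with 2 gate genes Pkib was at -0.70. Without cycling cells Nusap1 was at 0.66, Tpx2 at 0.83, Hmmr at 0.26, Aspm at 1.11, Hist1h3c at 0.47 and Xcl1 at -0.012 (log2). At 2000 UMIs per cell the detection difference was 19.3 points for Xcl1, against 11.5 at 1000. With 50 UMIs the genes higher and lower in NK cells numbered 176 and 137 against γδ T cells, and 149 and 158 against αβ T cells. Other causes were not tested. Removing foreign-marker or cycling cells, the whole-interval rule, the gate with Trbc1 and Trbc2 free, and lists without gate genes or with genes at 0 set at a bound were chosen after seeing the data. Of 68 named genes, 8 changed sign under some alternative. The interferon median ranged from -2.01 to -1.504 over its alternatives. The 90 control NK cells limit the precision of every ratio.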

Other observations

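Granzyme C and granzyme B transcripts occurred in the same NK cells. In the control library Gzmb was found in 73.9% of the 23 cells with a Gzmc UMI and in 23.9% of the 67 without. In the cKO library it was found in 54.9% of the 91 cells with Gzmc and in 11.6% of the others. After thinning to 1000 UMIs the shares were 60% and 23.8% in control and 40% and 4.73% in cKO, with exact binomial intervals that overlap in control and not in cKO. Deeper cells detect both genes more often, and the thinned counts are small (10 control and 25 cKO cells with Gzmc). Cdh1, E-cadherin, was also more common with Gzmc: in cKO, 28.4% of the 176 cells with Cdh1 had Gzmc, against 8.47% of the 484 without, and 11.1% against 3.26% after thinning. In control, after thinning, 1 of the 8 cells with Cdh1 and 9 of the 82 without had Gzmc. The exact binomial intervals of the thinned shares with and without Cdh1 overlap in both libraries.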
